A study of Mus musculus with 7 samples.

Results

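The 9 genes described here are the GLIS and GLI zinc-finger transcription factors (*Glis1*, *Glis2*, *Glis3*, *Gli1*, *Gli2* and *Gli3*) with the hedgehog ligand of the testis (*Dhh*), its receptor (*Ptch1*) and its decoy receptor (*Hhip*). They were chosen by symbol and not by their values, though earlier results of these data were known. All 9 are among the 24739 genes of the expression table. RNA-Seq libraries were made from whole testes of C57BL/6 mouse embryos at E14.5, with 1 pair of testes per library. Of the 7 libraries, 3 were labelled wild-type and 4 were from embryos homozygous for *Glis3zf5*, a mutation carried in every cell of the body that, per the study's methods, deletes an exon within the DNA-binding region and parts of its flanking introns. Levels are FPKM, in which fragments are divided by the length of the transcript and the size of the library, so that different genes can be set side by side. Genes were tested if their FPKM averaged 0.5 or more across the libraries. This left 13988 genes with 8 of the members, and *Glis1* was left out.

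In hedgehog signalling, a secreted ligand binds PTCH1 and thereby releases the membrane protein SMO, which acts through the primary cilium to turn GLI2 and GLI3 from repressors into activators of transcription. *Gli1*, *Ptch1* and *Hhip* are themselves induced by the pathway and serve as its readouts, and the proteins PTCH1 and HHIP limit it by holding the ligand. In the fetal testis the ligand is DHH from Sertoli cells, and the cells that respond lie in the interstitium and around the cords, among them the precursors of fetal Leydig cells. The GLIS proteins share the zinc-finger region of the GLI proteins, and GLIS3 is best known from the pancreas, thyroid and kidney.

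The mutant allele is named *Glis3zf5*, and the fifth zinc finger is shown for the 6 zinc-finger genes so that the relatedness of the family can be seen. Each line is the coding strand from the first cysteine codon to the last histidine codon, read from the GENCODE transcripts of GRCm38 (the same assembly as mm10), and the capitals mark the codons of the 2 cysteines and 2 histidines that hold the zinc ion.
Glis3: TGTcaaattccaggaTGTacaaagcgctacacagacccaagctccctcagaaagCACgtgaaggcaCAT
Glis1: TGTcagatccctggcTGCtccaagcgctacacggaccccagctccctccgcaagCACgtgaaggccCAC
Glis2: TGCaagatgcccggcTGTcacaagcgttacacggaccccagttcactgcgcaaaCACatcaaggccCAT
Gli1: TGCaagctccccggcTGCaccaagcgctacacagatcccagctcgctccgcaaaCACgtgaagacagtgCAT
Gli2: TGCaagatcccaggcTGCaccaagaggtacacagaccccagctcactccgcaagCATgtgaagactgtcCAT
Gli3: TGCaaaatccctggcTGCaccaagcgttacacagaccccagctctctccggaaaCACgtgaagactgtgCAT
The finger of *Glis3* lies at chr19:28354236-28354304 on the minus strand, in exon 6 of 11 of that transcript. Those of *Glis1* (chr4:107619566-107619634), *Glis2* (chr16:4613493-4613561) and *Gli3* (chr13:15720067-15720138) lie on the plus strand, and those of *Gli1* (chr10:127333715-127333786) and *Gli2* (chr1:118842114-118842185) on the minus strand. A motif of 2 cysteines and 2 histidines was found 5 times in each of the 6 genes. Over the whole five-finger stretch *Glis3* shared 81.6% of its aligned bases with *Glis1*, between 65.1% and 66.4% with the GLI genes and 57.1% with *Glis2*. The 3 GLI genes shared between 75.9% and 81.5% with each other, so that *Glis2* stood farther from *Glis3* in sequence than the GLI genes did.

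*Glis3* itself, the targeted gene, spans chr19:28262448-28680077 on the minus strand. It measured 7.63, 6.89 and 2.91 FPKM in wild-type libraries 1, 2 and 3, as labelled, against 3.86, 3.26, 2.90 and 2.66 FPKM in the 4 mutants. Wild-type replicates 1 and 2 stood above all mutant libraries, whereas the library labelled wild-type replicate 3 was lower than mutant replicates 1 and 2. The group means were 5.81 ± 2.54 FPKM (SD, n = 3) and 3.17 ± 0.524 FPKM (SD, n = 4). The difference in log2(FPKM + 0.5), mutant minus wild-type, was -0.69 (standard error 0.28, 95% interval -1.34 to -0.05), with an unadjusted p of 0.0375 and an adjusted p of 0.268 from limma, and it did not pass the threshold of 0.05. FPKM covers the whole gene, including exons outside of the deletion. Without the library labelled wild-type replicate 3 the difference was -1.09 and passed the threshold (adjusted p = 0.00985 from limma).

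Reads of repeats inside *Glis3* gave a second view of its transcripts, because the authors counted them separately from FPKM. Of 278 annotated LINE, SINE and LTR loci within the gene, 240 had reads. Scaled to all repeat reads of the library, their sum was 197, 141 and 108 CPM in wild-type replicates 1 to 3 and 87.5, 84.8, 84.2 and 59.3 CPM in mutant replicates 1 to 4. Here the groups did not overlap, and the library labelled wild-type replicate 3 was the lowest of the wild-type libraries, at 63.7% of the mean of the other two. The means were 149 ± 45.3 CPM (SD, n = 3) and 78.9 ± 13.2 CPM (SD, n = 4), a log2 difference of -0.89 (two-sided exact permutation test of log2 CPM, p = 0.0286, the smallest value that 35 splits allow).

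Only 1 repeat locus lay within 3500 bases of the exon that encodes the fifth finger, a B4A element at chr19:28353273-28353387. It had 8, 5 and 2 reads in wild-type replicates 1 to 3 and 0 reads in each of the 4 mutant libraries. The library labelled wild-type replicate 3 thus held reads at this locus, as no mutant library did, with 0.464 CPM (exact binomial 95% interval 0.0563 to 1.68), whereas 0 reads allow up to between 0.757 and 0.868 CPM in a single mutant library (3 reads). Over each group, 15 of 12826933 wild-type reads stood against 0 of 14898511 mutant reads. This was 5.81-fold lower with a floor of 3 reads over the mutant group and the wild-type count taken as exact. For comparison, the mutant mean over all repeat loci inside *Glis3* was 53.1% of the wild-type mean. The exact permutation test of CPM at the B4A locus gave p = 0.0286, and these intervals and floors cover counting error only. The study numbers the deleted exon as exon 4 and does not give the coordinates of the deletion. In the GENCODE transcript exon 4 holds fingers 1 and 2, and the 2 repeat loci around it, examined after the values had been seen, had 20, 9 and 9 reads in wild-type and 5, 7, 8 and 2 reads in mutant libraries. Those groups overlapped on the CPM scale.

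**Figure D1:**
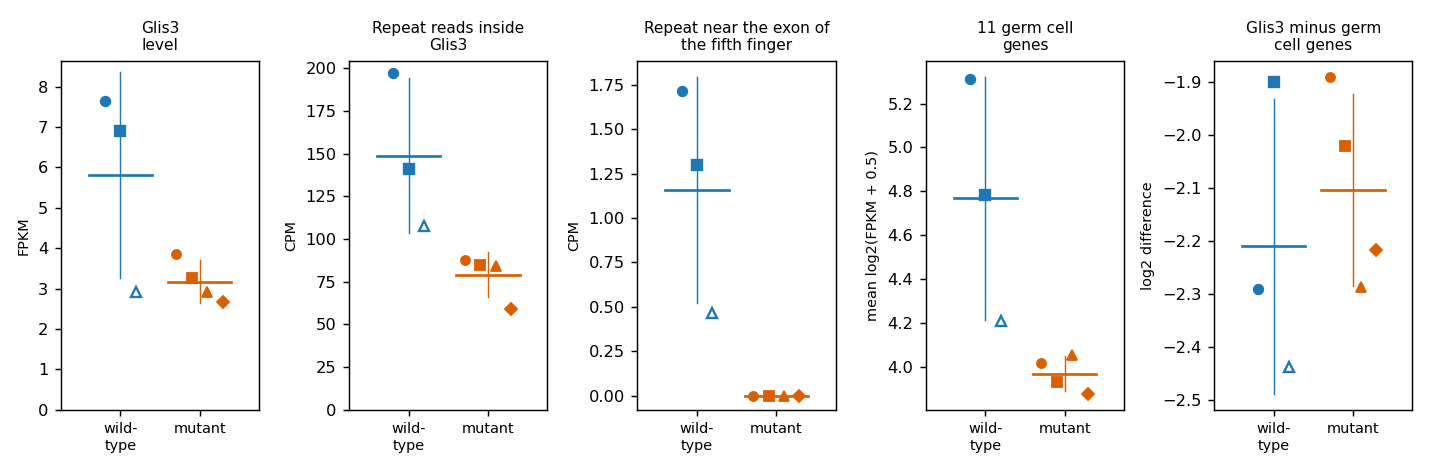
*Glis3* FPKM, CPM of repeat reads inside *Glis3*, CPM of the repeat near the exon of the fifth finger, mean log2(FPKM + 0.5) of 11 germ cell genes, and *Glis3* minus that mean, for each library; circles, squares, triangles and diamonds are replicates 1 to 4 (wild-type in blue, with replicate 3 as the open triangle; mutant in orange), horizontal lines are means and vertical lines SD. The open triangle lies among the mutants for *Glis3* FPKM and above them for both kinds of repeat reads, and the groups overlap in the last panel.

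*Glis3* was also set against germ cell genes, whose level differed between the libraries as well. The mean log2(FPKM + 0.5) of 11 germ cell genes was 5.31, 4.79 and 4.21 in wild-type replicates 1 to 3 and 4.02, 3.93, 4.05 and 3.88 in mutant replicates 1 to 4. All 11 were lower in the mutant mean, 8 with an unadjusted p under 0.05 (beside 8.79% of the genes tested that were lower at that level) and 0 past the threshold (limma), with a median log2 difference of -0.84 beside 0.01 over all genes tested. Without the library labelled wild-type replicate 3, 7 of the 11 passed the threshold, among them *Ddx4*, an RNA helicase of germ cells (adjusted p = 0.00388, limma), and the median was -1.15. In that fit 3.99% of the genes tested passed and were lower in the mutants. *Glis3* minus the germ cell mean was -2.29, -1.90 and -2.44 in wild-type and -1.89, -2.02, -2.29 and -2.22 in mutant libraries. On this scale the groups overlapped and differed by 0.11 (exact permutation test, p = 0.543; 0.629 adjusted over the 5 measures of this kind). In whole testes, fewer cells of a type and less RNA per cell cannot be told apart. The 5 genes whose log2 levels were most like those of *Glis3* over the 7 libraries, among 9412 others with a mean of at least 5 FPKM, were *Rundc3b* and *Tmem57* (Pearson's r 0.998 each), *Samhd1* (0.9965), *Gpat2* (0.995) and *Ankhd1* (0.992). These coefficients are a description over libraries of which 2 were high and 5 low for *Glis3*.

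The other GLIS genes differed widely in level. *Glis2* (chr16:4594713-4615957, plus strand), which encodes a regulator known from the kidney, had 11.7, 11.7 and 11.9 FPKM in wild-type and 11.8, 13.3, 10.8 and 13.4 FPKM in mutant libraries. The wild-type values lay within the mutant range, and the log2 difference of 0.06 had a 95% interval of -0.14 to 0.25 (adjusted p = 0.765, limma). *Glis1* (chr4:107434719-107635059, plus strand) was near the limit of detection, with 0.114, 0.0511 and 0 FPKM in wild-type and 0.0171, 0.0386, 0 and 0.0177 FPKM in mutant libraries. It was listed at 0 in 1 library of each genotype and could not be compared at this level. The level of *Glis2* exceeded that of *Glis3* in every library, since *Glis3* over *Glis2* ranged from 0.199 to 0.652, and the ratio averaged 0.495 ± 0.22 in wild-type libraries (SD, n = 3) and 0.26 ± 0.0538 in mutants (SD, n = 4; exact permutation test, p = 0.2).

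*Dhh* (chr15:98893027-98898540, minus strand), the ligand, was the most abundant of the 9 genes in every library. It had 47.4, 49.2 and 69.8 FPKM in wild-type and 59.3, 53.8, 63.5 and 59.5 FPKM in mutant libraries. The highest and the lowest library were both wild-type, the highest being the library labelled wild-type replicate 3. The means were 55.5 ± 12.4 FPKM (SD, n = 3) and 59.0 ± 3.99 FPKM (SD, n = 4), and the log2 difference was 0.11 (95% interval -0.19 to 0.41; adjusted p = 0.707, limma). Without the library labelled wild-type replicate 3 all mutant values of *Dhh* stood above the wild-type values, and the difference was 0.28 (adjusted p = 0.0784, limma). It was 0.0071 without wild-type replicate 1 (adjusted p = 0.987) and 0.035 without wild-type replicate 2 (adjusted p = 0.917), so that its size depended on which wild-type library was left out.

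*Ptch1* (chr13:63511533-63565520, minus strand), the receptor, had 13.7, 9.43 and 11.9 FPKM in wild-type and 11.6, 11.4, 10.2 and 9.24 FPKM in mutant libraries. The groups overlapped, with a log2 difference of -0.12 (95% interval -0.42 to 0.18; adjusted p = 0.67, limma), which was -0.0031 without wild-type replicate 1 and -0.26 without wild-type replicate 2. *Hhip* (chr8:79965851-80058008, minus strand), the decoy receptor, had 10.1, 11.3 and 15.02 FPKM in wild-type and 11.9, 13.2, 14.6 and 11.8 FPKM in mutant libraries. As for *Dhh*, the library labelled wild-type replicate 3 held the highest value of *Hhip*. Its log2 difference was 0.10 (95% interval -0.21 to 0.40; adjusted p = 0.748, limma), and 0.25 without that library (adjusted p = 0.197), when all mutant values stood above the wild-type values.

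*Gli1* (chr10:127329882-127341579, minus strand), the GLI factor whose own transcription is a readout of the pathway, had 11.4, 8.99 and 10.8 FPKM in wild-type and 9.73, 9.497, 9.12 and 9.25 FPKM in mutant libraries. The 4 mutant values lay close together, within the wild-type range, and the log2 difference was -0.13 (95% interval -0.33 to 0.07; adjusted p = 0.478, limma). *Gli2* (chr1:118834061-119053619, minus strand), the main activator of the pathway, had 2.05, 1.66 and 1.83 FPKM in wild-type and 2.205, 2.62, 2.03 and 1.77 FPKM in mutant libraries. *Gli3* (chr13:15463723-15730025, plus strand), the main repressor, had 6.71, 5.74 and 6.15 FPKM in wild-type and 6.45, 7.47, 5.54 and 5.92 FPKM in mutant libraries. Both overlapped between genotypes, with log2 differences of 0.17 for *Gli2* (95% interval -0.13 to 0.47; adjusted p = 0.54) and 0.03 for *Gli3* (95% interval -0.23 to 0.28; adjusted p = 0.929, limma). The ratio of *Gli3* to *Gli2* averaged 3.36 ± 0.0957 in wild-type libraries (SD, n = 3) and 2.96 ± 0.269 in mutants (SD, n = 4; exact permutation test, p = 0.0857). *Ptch1* was 0.999 to 1.202 times *Gli1* in every library, and this ratio averaged 1.12 ± 0.0764 in wild-type (SD, n = 3) and 1.13 ± 0.0929 in mutant libraries (SD, n = 4).

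**Figure D2:**
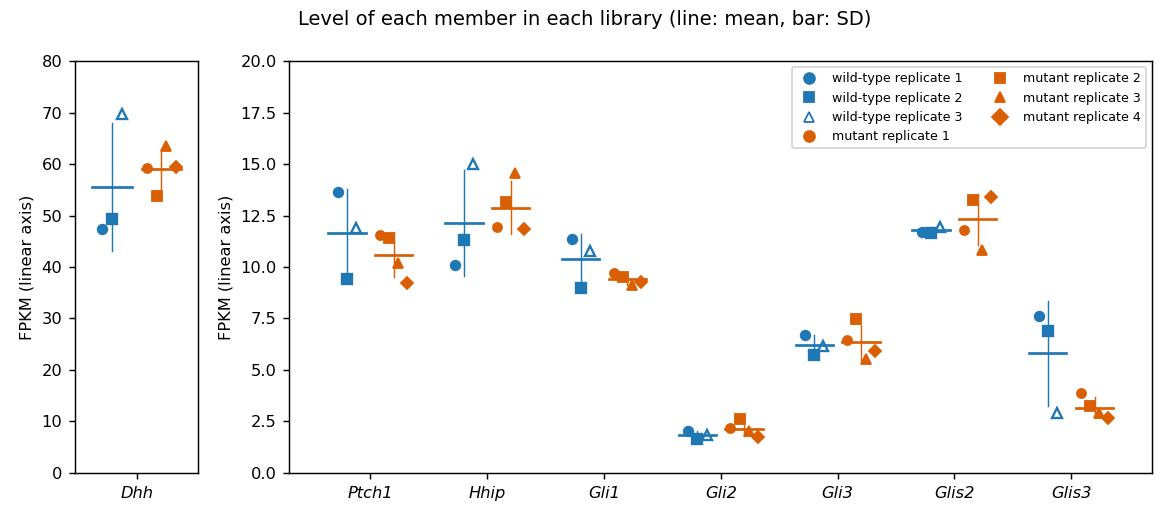
FPKM of *Dhh* (left axis) and of 7 further members (right axis) in each library, with wild-type libraries in blue and mutant libraries in orange; lines are means, vertical bars SD, and the open triangle is the library labelled wild-type replicate 3. Wild-type and mutant values overlap for all 8 genes, and the open triangle is the highest point for *Dhh* and *Hhip*.

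By mean level the order was *Dhh* (57.5 FPKM), *Hhip* (12.6), *Glis2* (12.1), *Ptch1* (11.1), *Gli1* (9.82), *Gli3* (6.28), *Glis3* (4.30), *Gli2* (2.02) and *Glis1* (0.0341). *Dhh* stood above 89.0% of the genes tested. *Hhip*, *Glis2*, *Ptch1* and *Gli1* had overlapping ranges, each with the next, as did *Gli3* and *Glis3*. The range of *Gli1* lay above that of *Gli3*, and that of *Glis3* above that of *Gli2*. The spread within groups was largest for *Glis3*, whose pooled SD of log2(FPKM + 0.5) was 0.462 and exceeded that of 95.8% of the genes tested, and smallest for *Glis2* (0.109) and *Gli1* (0.111), beside a median of 0.132 over the genes tested.

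Of the 8 tested members 0 passed the threshold in limma, and 1 (*Glis3*) had an unadjusted p under 0.05, beside 0.00715% and 17.0% of the genes tested. The 1 gene past the threshold was *Cpsf4l*, which resembles a subunit of the complex that cleaves and polyadenylates pre-mRNA. It had 13.7, 9.34 and 7.497 FPKM in wild-type and 0.568, 0.996, 1.06 and 0.944 FPKM in mutant libraries (log2 difference -2.91, adjusted p = 0.00547, limma). For the 7 tested members other than *Glis3*, each 95% interval included 0. The outermost limits were -0.42 (*Ptch1*) and 0.47 (*Gli2*), and the intervals were narrower for *Glis2* (-0.14 to 0.25) and *Gli1* (-0.33 to 0.07). Each interval holds the differences that the values of that gene allow. Without the library labelled wild-type replicate 3, 720 genes (5.15%) passed the threshold, 1.16% of the genes tested higher and 3.99% lower in the mutants. Of the members this was *Glis3*, lower in the mutants. The groups then did not overlap for *Dhh* and *Hhip*, higher in the mutants, and for *Glis3*, lower, beside 15.6% and 17.1% of the genes tested that lay above and below in this way. The mutant values of *Glis1* also lay below, but it was not tested and is outside of these shares.

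**Figure D3:**
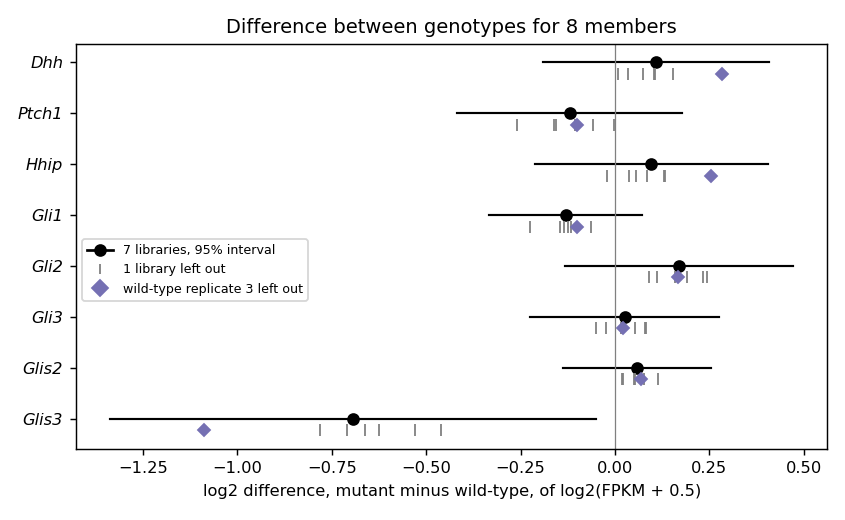
Difference in log2(FPKM + 0.5), mutant minus wild-type, for the 8 tested members with its 95% interval (black), and the difference with 1 library left out in turn (grey marks; the diamond leaves out the library labelled wild-type replicate 3). The interval crosses 0 for each member but *Glis3*, and leaving out that library moves *Glis3* to -1.09, *Dhh* to 0.28 and *Hhip* to 0.25.

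*Dhh* and the readouts of the pathway were also set against the cells known to make or to answer the signal. Among 8 Sertoli cell genes 7 were higher in the mutant mean, beside 7294 of the 13988 genes tested. Of the 8, 1 (*Cst9*) had an unadjusted p under 0.05 in limma, beside 8.21% of the genes tested that were higher at that level. The summed level of the 8 genes was 956 to 1195 FPKM in wild-type and 1159 to 1339 FPKM in mutant libraries. *Dhh* minus the mean of these genes on the log2 scale was 0.12, 0.39 and 0.51 in wild-type and 0.37, 0.10, 0.30 and 0.36 in mutant libraries, and the groups overlapped (difference -0.06; exact permutation test, p = 0.629). All 9 interstitial and peritubular genes were higher in the mutant mean, beside 7294 of the 13988 genes tested. Of the 9, 3 (*Maf*, *Acta2* and *Myh11*) had an unadjusted p under 0.05 in limma, beside 8.21% of the genes tested that were higher at that level. The summed level of the 9 genes was 420 to 425.5 FPKM in wild-type and 429 to 534 FPKM in mutant libraries. Of the genes of these lists, 0 passed the threshold in limma. Without the library labelled wild-type replicate 3, 1 did, the Sertoli cell gene *Ptgds*, which encodes a prostaglandin synthase (log2 difference 0.44, adjusted p = 0.0478, limma). In that fit 1.16% of the genes tested passed and were higher in the mutants.

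*Gli1* minus the mean of the interstitial genes was -1.15, -1.47 and -1.07 in wild-type and -1.66, -1.70, -1.52 and -1.53 in mutant libraries. Every mutant library stood below every wild-type library, with a difference of -0.37 (exact permutation test, p = 0.0286, the smallest possible; 0.143 adjusted over the 5 measures). With the median of the list in place of its mean the difference was -0.29 and the groups were no longer the extreme split (exact permutation test, p = 0.0571). *Ptch1* on the same scale was -0.89, -1.40 and -0.93 in wild-type and -1.42, -1.45, -1.36 and -1.53 in mutant libraries (difference -0.36; exact permutation test, p = 0.0571; 0.143 adjusted). For *Hhip* the difference was -0.15 (p = 0.543, exact permutation test). These measures depend on the listed genes as much as on the member. Fetal Leydig cell genes, of which 10 of 11 were higher in the mutant mean and 8 had an unadjusted p under 0.05 (beside 8.21% of the genes tested that were higher at that level), summed to 2025 to 3192 FPKM in wild-type and 3053 to 3740 FPKM in mutant libraries. In limma 0 of these 11 passed the threshold, and without the library labelled wild-type replicate 3 it was passed by 2, *Fdx1* (adjusted p = 0.0343) and *Fdxr* (0.0384), which pass electrons to steroidogenic enzymes. Of all genes tested, 1.16% passed it in that fit and were higher in the mutants. The part of fetal Leydig cells in the values of the members was not tested.

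**Figure D4:**
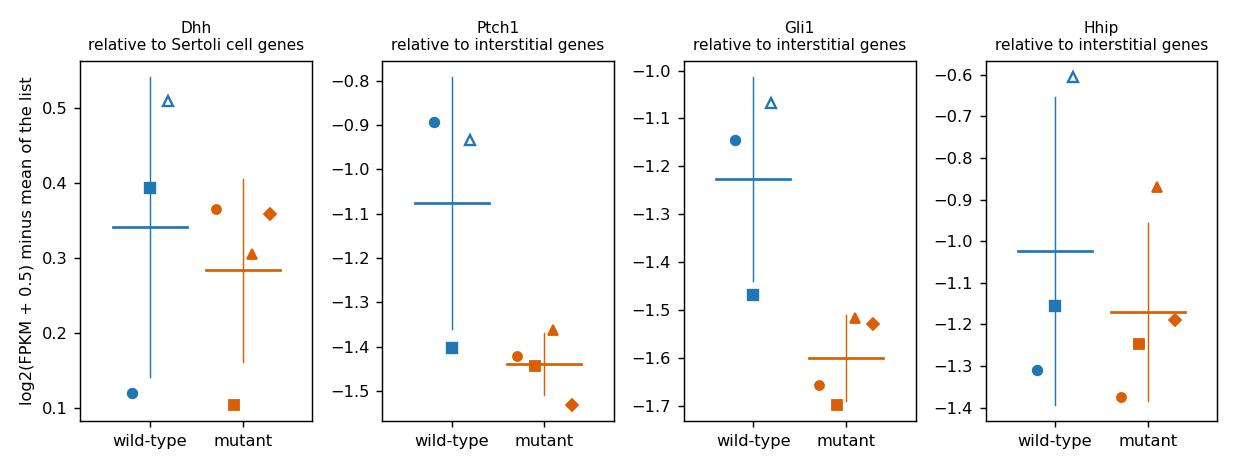
Log2(FPKM + 0.5) of *Dhh* minus the mean of 8 Sertoli cell genes, and of *Ptch1*, *Gli1* and *Hhip* minus the mean of 9 interstitial and peritubular genes, for each library (wild-type in blue with replicate 3 as the open triangle, mutant in orange; lines are means and vertical bars SD). The 4 mutant libraries lie below the 3 wild-type libraries for *Gli1*, with a difference of -0.37, and the groups overlap in the other panels.

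Other genes of the pathway were taken from a list of 40, of which 34 passed the filter. In limma 0 of the 34 passed the threshold, 4 had an unadjusted p under 0.05 and were lower in the mutants, and 0 were higher at that level, beside 8.79% and 8.21% of the genes tested. The groups did not overlap for 3 genes, all lower in the mutants, beside 7.59% of the genes tested that lay below in this way and 7.31% that lay above. The median log2 difference was -0.02 beside 0.01 over all genes tested, and the 95% interval lay within 1 log2 unit of 0 for 33 of the 34. The remaining gene was *Foxf1*, a mesenchymal forkhead factor induced by hedgehog signals in the gut and lung, with a mean of 0.608 FPKM.

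The other hedgehog ligands were scarce. *Shh*, the more abundant, had between 0.234 and 0.502 FPKM over the 7 libraries, and *Ihh* a mean of 0.127 FPKM. Among 4 tested genes for processing and release of the ligand, *Scube3*, a secreted glycoprotein of the family that takes up the lipid-bearing ligand, had 3.73, 2.996 and 2.68 FPKM in wild-type and 2.42, 2.38, 2.46 and 2.07 FPKM in mutant libraries. All mutant values of *Scube3* lay below the wild-type values (log2 difference -0.35, unadjusted p = 0.018, adjusted p = 0.216, limma). None of the 6 receptors and co-receptors had an unadjusted p under 0.05 in limma, beside 17.0% of the genes tested. The most abundant was *Gpc3*, a glypican that competes with PTCH1 for the ligand, with 332 to 465 FPKM in wild-type and 342 to 449 FPKM in mutant libraries (log2 difference 0.09, adjusted p = 0.765).

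Among 13 genes of signal transduction, *Stk36*, a kinase related to the fly kinase Fused, had 1.48, 1.51 and 1.04 FPKM in wild-type and 1.02, 0.916, 0.744 and 0.739 FPKM in mutant libraries, again without overlap (log2 difference -0.44, unadjusted p = 0.015, adjusted p = 0.21, limma). Among 7 genes of transport in the primary cilium, *Ift88*, a part of the intraflagellar transport complex, had 17.6, 17.5 and 13.4 FPKM in wild-type and 12.8, 13.5, 12.3 and 12.6 FPKM in mutant libraries. The log2 difference of *Ift88* was -0.32 (unadjusted p = 0.014, adjusted p = 0.207), and without the library labelled wild-type replicate 3 it was -0.44 and passed the threshold (adjusted p = 0.0179, limma), as did no other gene of the pathway list. In that fit 3.99% of the genes tested passed and were lower in the mutants. *Kif3a*, a subunit of the motor that drives this transport, had a log2 difference of -0.16 (unadjusted p = 0.0461, adjusted p = 0.287), with all mutant values below the wild-type values. Of 4 tested genes that hedgehog signals induce in other tissues, none had an unadjusted p under 0.05 in limma, beside 17.0% of the genes tested. The most abundant, *Mycn*, which drives proliferation, had a log2 difference of -0.0026 (95% interval -0.26 to 0.26).

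**Figure D5:**
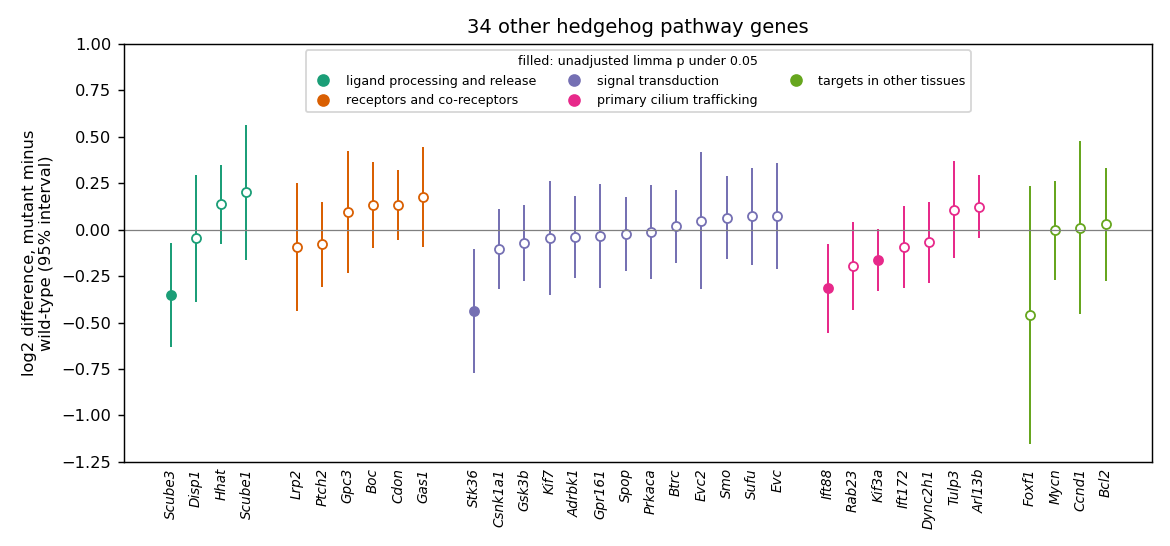
Difference in log2(FPKM + 0.5), mutant minus wild-type, with its 95% interval for 34 tested hedgehog pathway genes other than the members, grouped by role; filled circles have an unadjusted limma p under 0.05. The 4 filled circles (*Scube3*, *Stk36*, *Ift88* and *Kif3a*) lie below 0, and 0 of the 34 genes passed the adjusted threshold.

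Partners of the GLIS proteins were described in the same way. Of 6 genes whose proteins bind GLIS proteins, none had an unadjusted p under 0.05 in limma, beside 17.0% of the genes tested. The log2 differences of the 6 genes lay between -0.01 and 0.07. The most abundant was *Ctnnb1*, which encodes beta-catenin, with a mean of 617 FPKM.

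Of 10 genes listed as known or candidate targets of GLIS3 in pancreas, thyroid or postnatal testis, 6 passed the filter and 4 had an unadjusted p under 0.05, 2 higher and 2 lower in the mutants, beside 17.0% of the genes tested, with 0 past the threshold in limma. *Lhx1*, a LIM homeobox factor, had 2.41, 1.23 and 1.24 FPKM in wild-type and 0.524, 0.892, 0.722 and 0.673 FPKM in mutant libraries, without overlap (log2 difference -0.79, unadjusted p = 0.00474, adjusted p = 0.178). *Pde8b*, which breaks down cAMP, had 2.81, 3.45 and 2.69 FPKM in wild-type and 4.23, 3.97, 3.92 and 3.91 FPKM in mutant libraries, also without overlap (log2 difference 0.38, unadjusted p = 0.00479, adjusted p = 0.178, limma). *Mafa*, an activator of the insulin genes in beta cells, had a log2 difference of 0.64 (unadjusted p = 0.0271, adjusted p = 0.244) with overlapping groups. *Pou5f1*, a pluripotency factor that is also in the germ cell list, had 163, 96.0 and 54.1 FPKM in wild-type and 59.2, 50.01, 62.8 and 52.1 FPKM in mutant libraries (log2 difference -0.76, unadjusted p = 0.0371, adjusted p = 0.267), and without the library labelled wild-type replicate 3 the difference was -1.16 and passed the threshold (adjusted p = 0.0212, limma). The value labelled wild-type replicate 3 fell inside the mutant range for *Pou5f1*, as it did for *Glis3*. *Neurog3*, which directs endocrine cells of the pancreas and marks undifferentiated spermatogonia, was below the filter and is named because its values were seen. It had 0.283, 0.165 and 0.184 FPKM in wild-type and 0.738, 0.595, 0.83 and 0.442 FPKM in mutant libraries, without overlap.

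The 5 genes whose log2 levels were most like those of *Gli1* over the 7 libraries, by the same measure as for *Glis3*, were *Ppp5c* (r 0.991), *Dgkz* (0.984), *Bbs2* (0.982), *Zfp598* (0.9795) and *Csnk1e* (0.974). *Ptch1* came at rank 147 of 9411 (r 0.892), *Gli3* had r 0.406, *Dhh* -0.06 and *Hhip* -0.19. These coefficients are a description of 7 libraries and carry no test.

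Markers of further cell types and tissues were also summed, of which the mesonephric list bears on the dissection. Of 5 mesonephric genes, 4 (*Pax2*, *Calb1*, *Gata3* and *Cdh16*) were under 0.5 FPKM in all libraries, and the list summed to 0.874 to 1.37 FPKM in wild-type and 0.884 to 1.54 FPKM in mutant libraries. The 8 endothelial genes summed to 111 to 141 FPKM in wild-type and 124 to 128 FPKM in mutant libraries. Schwann cells and glia are another cell type known to make DHH, and their 6 genes summed to 7.72 to 12.5 FPKM and 7.46 to 9.72 FPKM. In limma 0 genes of these 2 lists had an unadjusted p under 0.05, beside 17.0% of the genes tested. Of the 4 adrenal cortex genes, 2 (*Cyp11b1* and *Akr1b7*) had an unadjusted p under 0.05 and were higher in the mutants, beside 8.21% of the genes tested. The 4 genes summed to 16.1 to 26.4 FPKM in wild-type and 24.4 to 33.7 FPKM in mutant libraries. The source of these adrenal cortex transcripts was not tested. The germ cell genes summed to 602 to 1388 FPKM in wild-type and 489 to 645 FPKM in mutant libraries, with none under 0.5 FPKM in all libraries.

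The promoters of 7 members (250 bases before to 50 bases after the start, RefSeq, GRCm38.p6) were searched on both strands for the GLI motif GACCACCCA and the GLIS motif TGGGGGGT. Neither set of letters was in these 7 windows, and among 32851 mouse promoters of that length they were in 0.253% and 1.53%. Those of *Gli1* and *Glis2* were not analysed here.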

How the data were processed

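RNA was measured in whole testes of 7 mouse embryos, 3 wild-type and 4 mutant by their labels. Ribosomal RNA was removed and no poly-A selection was made. The authors aligned reads to mm10 with TopHat 2.0.12 without strand information, and the deposited FPKM values come from the Cuffquant and Cuffnorm workflow of the authors with RefSeq annotation. The deposited counts of repeats were made by the authors from uniquely mapped reads with HTSeq-count on RepeatMasker loci, and summed to between 3454317 and 4670830 reads per library. The number of fragments behind an FPKM value is unknown, so that no counting error can be given. Overlapping genes cannot be separated without strand, which concerns 1854 bases that *Glis3* shares with *D930032P07Rik* (listed at 0 in every library), 80 bases of *Gli2* and *Mir6346* (also at 0) and 62 bases of *Gli1* and *Arhgap9*. In the expression table and in the repeat counts the header joins 2 column names (wild-type replicate 3 and mutant replicate 1), and columns were taken by number.

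Genes that averaged 0.5 FPKM or more were tested as log2(FPKM + 0.5) by limma 3.58.1 in R 4.3.3 (lmFit, eBayes with a trend, two-sided), with Benjamini-Hochberg adjustment over 13988 genes, a threshold of 0.05 and 95% intervals. On this scale the change of weakly expressed genes is understated. The fit was also run on simulated data for the mutant against wild-type comparison, with 200 of 13988 genes changed by 1.5 log2 units. There the fit called 200 of the changed and 9 other genes. Recovery of smaller changes was not tested, and all differences of the members were smaller (the largest was -0.69, for *Glis3*). On the measured libraries the fit called 1 gene, and 720 without wild-type replicate 3. For single measures an exact permutation test was used (two-sided, 35 splits of 7 libraries). The smallest p is 0.0667 without 1 wild-type and 0.1 without 1 mutant library. Repeat reads were scaled to CPM over all repeat reads, tested as log2 CPM and, where libraries were at 0, as CPM. TMM sizes came from edgeR 4.0.16. Zinc fingers were found in GENCODE M21 coding sequences with Biopython 1.88 in Python 3.11.15.

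All 9 members are named. Of each role in the lists other than cell type markers, genes with an unadjusted p under 0.05 are named (up to 4), and otherwise the most abundant gene, as well as the 5 genes most like *Glis3* and the 5 most like *Gli1* and the gene past the threshold. Genes of the marker lists, *Foxf1*, *Ihh* and *Neurog3* are named after their values were seen. The members, lists and tests were chosen with earlier results of these data known. Alternatives were leaving out each library, pseudocounts of 1 and 0.1, a filter at 2 FPKM or none, values centred on their median or quantile-normalized, array weights, a variance without trend, the replicate number as a block, the median of a list, TMM sizes and only loci that averaged 1 read or more. The window around exon 4 and the count of members without overlap without wild-type replicate 3 were added after seeing the data. Cuffdiff, which the authors used on aligned reads, and protein sequences were not analysed here. The result of 1 further list is not reported here.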

Additional observations from a re-analysis of the deposited data

Results flagged for a closer look

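In 29 sets of the 4 mutant libraries (members, other named genes, measures against marker lists and repeat reads), 2 held a library that stood apart by Dixon's ratio, which chance gives in about 1 of 20 sets. Repeat reads inside *Glis3* were 87.5, 84.8 and 84.2 CPM in mutant replicates 1 to 3 and 59.3 CPM in mutant replicate 4 (ratio 0.8835). Without mutant replicate 4 the log2 difference was -0.75. *Pde8b* had 4.23 FPKM in mutant replicate 1 and 3.97, 3.92 and 3.91 FPKM in the others (ratio 0.834).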

How the results depend on the processing

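Of the 8 tested members, *Dhh*, *Ptch1*, *Gli1*, *Gli2* and *Glis2* kept their direction and stayed outside of the threshold under all 16 alternatives, but their sizes moved: with 1 library left out they ranged from 0.0071 to 0.28, -0.26 to -0.0031, -0.23 to -0.0643, 0.0887 to 0.24 and 0.0173 to 0.11, in that order. *Glis3* kept its direction and passed the threshold under 1 of them, without wild-type replicate 3 (-1.09, adjusted p = 0.00985). With 1 library left out, *Glis3* ranged from -1.09 to -0.46, *Hhip* from -0.0215 (without wild-type replicate 1) to 0.25, and *Gli3* from -0.0508 (without mutant replicate 2) to 0.0824, with -0.03 without wild-type replicate 2. For these changes of sign the cause was not tested. With no filter *Glis1* had a log2 difference of -0.09 (adjusted p = 0.601, limma). Leaving out 1 library at a time gave 1 to 720 genes called (720 without wild-type replicate 3, 5 without wild-type replicate 2 and 2 without wild-type replicate 1 or mutant replicate 3), 0 to 1 members called and 0 to 1 pathway genes called. No filter gave 4 genes among 21236 tested, and quantile normalization 3. Without wild-type replicate 3, 4 members had groups that did not overlap, counting *Glis1*, which was not tested. Of the genes tested, 15.6% then lay above and 17.1% below in the mutants. *Glis3* minus germ cell genes ranged from -0.0082 (without wild-type replicate 3) to 0.26 with 1 library left out, and was 0.29 with the median of the list. *Dhh* minus Sertoli cell genes ranged from -0.168 to 0.027 (without wild-type replicate 3), with 0.0022 without mutant replicate 2. *Hhip* minus interstitial genes ranged from -0.29 to 0.0616 (without wild-type replicate 3). *Gli1* minus interstitial genes ranged from -0.495 to -0.29 with 1 library left out and was -0.29 with the median of the list (p = 0.0571, exact permutation test). Repeat reads inside *Glis3* ranged from -1.10 to -0.66 on the log2 scale, and those near the exon of the fifth finger from -1.51 to -0.882 CPM. With 1 library left out the exact test could not pass 0.05. Around exon 4 the difference was -1.40 CPM (p = 0.0857, exact permutation test).

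The deviations of samples with the same replicate number had correlations of 0.198, -0.177 and 0.229 for numbers 1 to 3. Wild-type replicates 1 and 3 were most like the mutant of their own number, and wild-type replicate 2 was most like mutant replicate 1. Since 1 of the 3 correlations was negative, the numbers were not taken as pairs. A fit with the replicate block called 0 genes in limma, with 1726 at an unadjusted p under 0.05, and 0 members.

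With 3 wild-type libraries, of which 1 lay with the mutants for *Glis3*, many values depend on that library. The reads near the exon of the fifth finger number 15 in all.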
